A study of Mus musculus with 4 samples.

Results

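Genes of the machinery that brings proteins into mitochondria and folds them there were compared between isolated mitochondria and the remaining tissue of skeletal muscle from wild-type mice. Members were all protein-coding genes of the table with a Tomm or Timm symbol followed by a digit, plus Timmdc1, Dnajc19, Pam16, Samm50, Mtx1, Mtx2, Grpel1, Grpel2, Pmpca, Pmpcb, Hspa9, Hspd1 and Hspe1. They numbered 35 of the 16472 genes in the table, and the rule used no measured value. Each group held 2 libraries of total RNA. The labels give no treatment other than the fractionation and no strain, age or sex, and nothing says that the libraries came from separate animals, so that p-values measure only the spread between these samples, which may be technical. Sources differ on the comparison group, since its treatment label and protocol name tissue depleted of mitochondria, while its titles and a legend of the study name total tissue. It is called remaining tissue here after the treatment label. For mitochondria of the heart, the methods of the study describe a digestion with digitonin and RNase A before RNA was isolated. Fragmentation was shortened to 1 min for mitochondrial RNA, so an effect of fragmentation and an effect of the fraction cannot be told apart.

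Nearly all mitochondrial proteins are encoded in the nucleus, made on ribosomes in the cytosol and imported afterwards. The TOM complex of the outer membrane is the common entry gate, from which SAM inserts barrel proteins into the outer membrane, small TIM chaperones guide hydrophobic proteins through the intermembrane space, TIM22 inserts carriers into the inner membrane, and TIM23 with its motor pulls presequence proteins into the matrix. There the presequence is cut off by the processing peptidase, and many proteins are folded by mitochondrial Hsp70 (Hspa9) and by the chaperonin of Hspd1 and Hspe1. Muscle fibres are rich in mitochondria, and import is needed wherever mitochondria are made. All members are therefore genes of the nucleus, and what was measured is their RNA, not the protein.

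The first 300 nt of the coding sequence of Timm22, the channel-forming subunit of TIM22, are shown because this gene carried the largest difference among the members tested (chr11:76406952-76416292, plus strand, GRCm38; the coding sequence of 585 nt runs from position 63 to 647 of a transcript of 2817 nt, and capitals mark the start codon). The sequence was taken from the GENCODE M21 transcripts.
Timm22: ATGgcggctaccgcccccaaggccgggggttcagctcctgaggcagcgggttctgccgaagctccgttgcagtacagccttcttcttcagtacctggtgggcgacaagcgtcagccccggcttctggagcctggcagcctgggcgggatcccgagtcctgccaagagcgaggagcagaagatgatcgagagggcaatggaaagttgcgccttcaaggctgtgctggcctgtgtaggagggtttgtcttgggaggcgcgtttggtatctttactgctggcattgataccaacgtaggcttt

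For the small TIM chaperones, the coding stretches that hold both cysteine motifs are shown, since this pattern unites the family while its members differed in the reads they drew. Each motif is a pair of cysteine codons with 3 codons between them, and capitals mark the 4 cysteine codons. Timm8b had the highest level per length of the family, Timm13 the highest value in a library of isolated mitochondria, and Timm10 no read in that fraction.
Timm8b: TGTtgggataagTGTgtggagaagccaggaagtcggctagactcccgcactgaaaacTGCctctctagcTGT
Timm13: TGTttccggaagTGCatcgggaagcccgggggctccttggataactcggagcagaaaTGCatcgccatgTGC
Timm10: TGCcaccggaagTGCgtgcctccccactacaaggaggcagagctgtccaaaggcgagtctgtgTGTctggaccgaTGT
The motifs lie 14 codons apart in Timm8b and Timm13 and 16 codons apart in Timm10. All 6 small TIM genes in the table held 2 such motifs.

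Few reads stood behind the members in isolated mitochondria. The values deposited are normalized counts, and in isolated mitochondria they could be turned back into whole reads, with 1 read worth 9.05 normalized counts in replicate 1 and 5.06 in replicate 2. The libraries of isolated mitochondria held 42750552 and 35304972 reads on genes, of which 95.3% and 94.1% were encoded by the mitochondrial genome, and an estimated 15686722 and 15285027 reads stood behind remaining tissue. The 35 members together had 183 and 342 reads in isolated mitochondria, with a median of 4 and 8 reads per gene, against an estimated 16141 and 15943 reads in remaining tissue. Replicates of remaining tissue lay close together, with a median absolute log2 difference of 0.12 over the 35 members, and those of isolated mitochondria farther apart, at 0.64. Of the tissue itself, all 12 markers of myofibres were present in every library, and 10 of them were lower in isolated mitochondria, where their summed normalized counts were 70211 and 62970 against 543351 and 525584. The 4 fibroblast markers were all higher (8045 and 16512 against 1218 and 1345). The 2 tested of 3 macrophage markers were higher as well (list sums 289 and 278 against 33 and 40). These sums are too low in remaining tissue for both tested markers to reach there the minimum mean for testing given below. The macrophage calls are therefore, at least in part, conditional on the upward direction. Of 4 endothelial markers 1 was lower in limma and 3 in edgeR and DESeq2 (72 and 126 against 417 and 412). Blood markers summed to 99 and 40 against 162 and 172, where none of the 2 tested passed in limma or edgeR, none had an unadjusted p under 0.05 and 1 was lower in DESeq2. Adipocyte markers summed to 45 and 85 against 26 and 110. The 3 liver markers summed to 9158 and 1922 against 217 and 37 and did not pass the test, with 3 of 3 at an unadjusted p under 0.05 in limma and 3 of 3 passing in edgeR and DESeq2. The 2 neuron markers in the table summed to 480 and 648 against 2 and 3, with Rbfox3 at 0 in remaining tissue. RNAs kept in the nucleus (Malat1, Neat1 and Kcnq1ot1) summed to 3655 and 1346 against 11776 and 10569. Beside these marker counts, 7.32% of all genes tested were higher and 9.30% lower in limma, and 37.0% had an unadjusted p under 0.05. The shares higher and lower were 13.6% and 17.6% in edgeR and 17.1% and 19.5% in DESeq2. Whether the cells other than myofibres took part in the results below was not tested. In bulk samples, fewer cells of a type and less RNA per cell cannot be told apart.

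**Figure D1:**
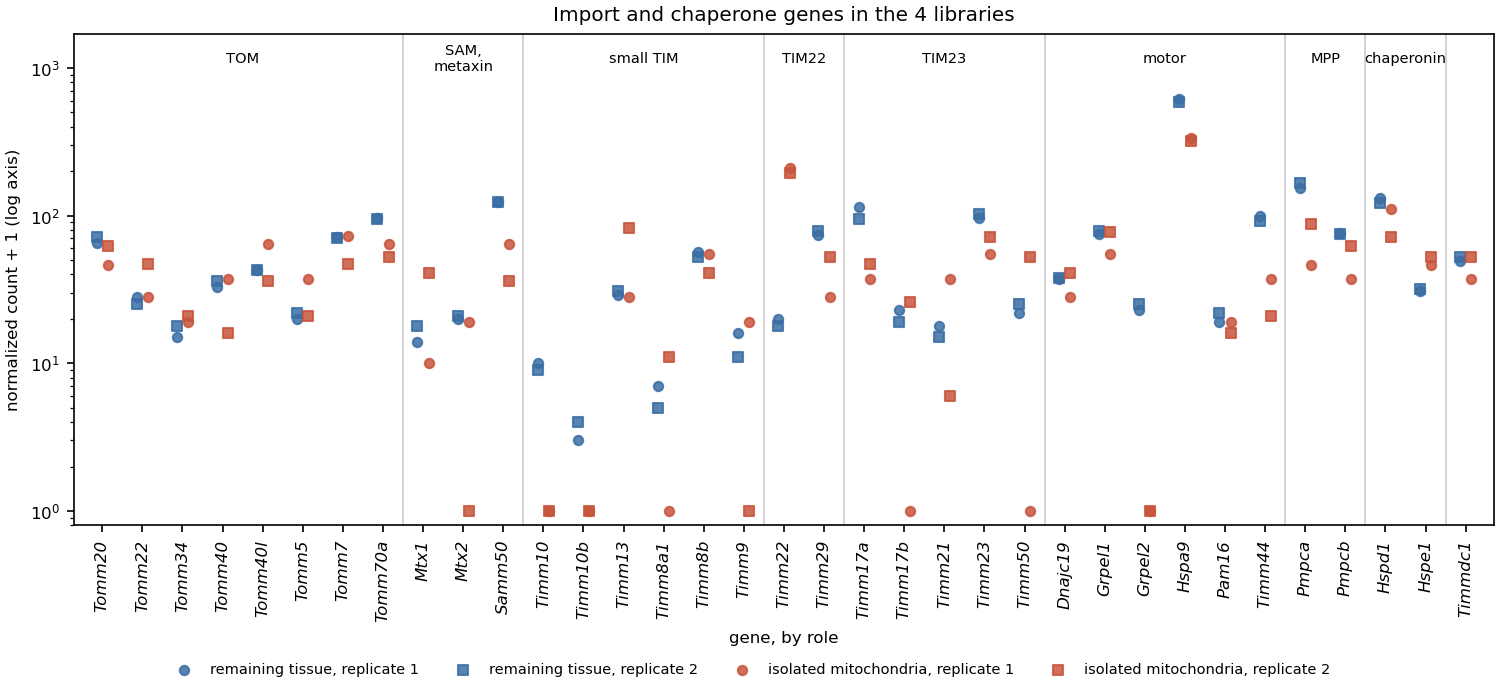
Normalized count plus 1 (log axis) of each of the 35 members in the 4 libraries, ordered by role, with blue points for remaining tissue and red points for isolated mitochondria and a marker shape for each replicate. MPP stands for the processing peptidase. The blue pairs nearly coincide, Timm22 is the gene whose red points (208 and 192) stand far above the blue ones (19 and 17), and Grpel2, Timm10 and Timm10b have both red points at a normalized count of 0.

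Of the 35 members, 24 had a mean of at least 20 normalized counts over the 4 libraries and were tested with limma, on log2(normalized count + 1) and adjusted by Benjamini-Hochberg over all 6916 genes tested. Timm22 was higher and Hspa9 lower in isolated mitochondria, and the other 22 did not pass. Over all genes tested, 16.6% passed (7.32% higher and 9.30% lower), so that 2 of 24 members is no more than the background. The median log2 fold change was -0.43 for the members and -0.44 for all genes tested, and 18 of the 24 members had a negative one, against 63.1% of all genes. Groups did not overlap for 13 of the 24 members (2 higher, 11 lower) and for 69.1% of all genes tested (25.5% higher, 43.7% lower). These signs depend on the scaling: relative to the reads of nuclear genes alone, the median of the members was 0.47 and that of all genes 0.45, 12 of the 18 negative members turned positive, and Timm44, Timm17a, Samm50, Pmpca and Timm29 were among the 6 that did not. The other one was Timm50, which had no read in a library of isolated mitochondria and was positive in edgeR and DESeq2. An unadjusted p under 0.05 was found for 7 of the 24 members, against 37.0% of all genes. edgeR was run on reads recovered in isolated mitochondria and estimated in remaining tissue. It called 1 member higher and 5 lower, where 13.6% and 17.6% of all genes passed. DESeq2 on these reads called the same numbers, where 17.1% and 19.5% passed. Leaving out either library of remaining tissue left Timm22 alone. Without replicate 1 of isolated mitochondria 5 members were called higher and 11 lower (24.9% and 40.1% of all genes), and without replicate 2 it was 4 and 13 (23.8% and 46.2%), the spread then being that of the close pair of remaining tissue.

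**Figure D2:**
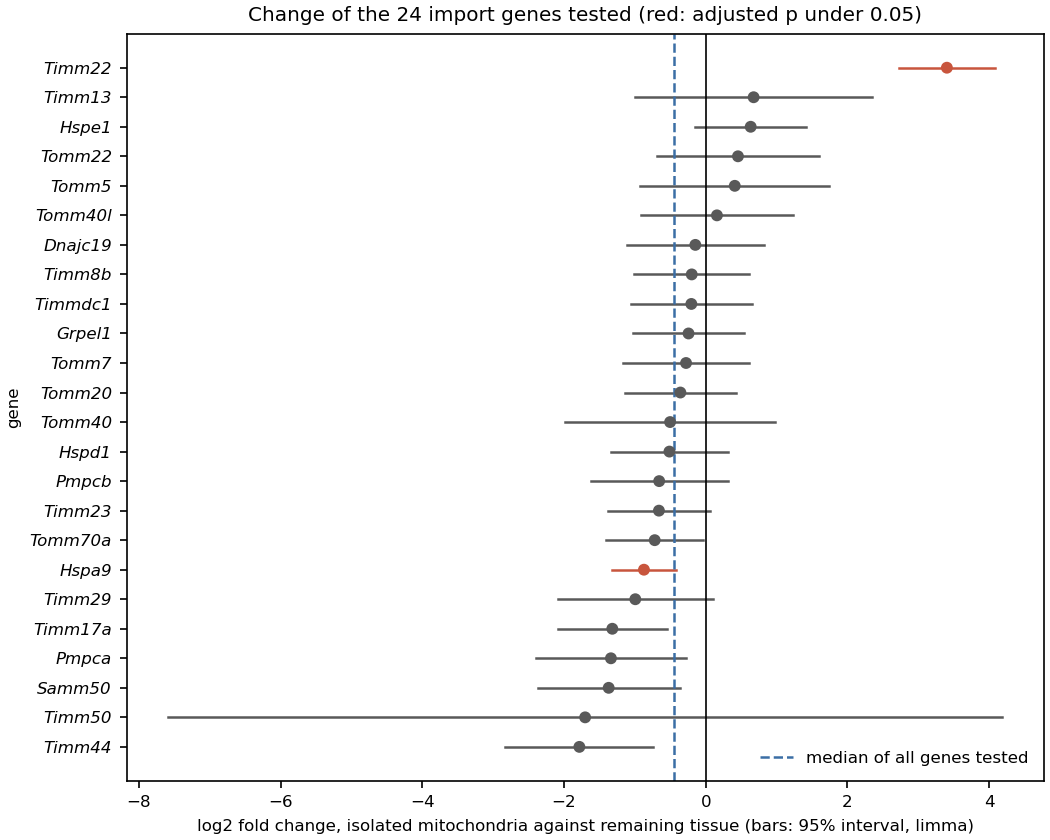
Log2 fold change of isolated mitochondria against remaining tissue for the 24 members tested, with 95% intervals from limma, red where the adjusted p is under 0.05, and a dashed line at the median of all genes tested (-0.44). All points but that of Timm22 (3.40) lie between -1.78 and 0.68, on both sides of the dashed line.

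Timm22 forms the inner membrane channel through which carrier proteins are inserted. It had 19 and 17 normalized counts in remaining tissue and 208 and 192 in isolated mitochondria, where 23 and 38 reads were counted. Both libraries of isolated mitochondria were far above both libraries of remaining tissue. The mean was 18.0 ± 1.4 (SD, n = 2) in remaining tissue and 200.0 ± 11.3 in isolated mitochondria, 11.1-fold higher. In limma the log2 fold change was 3.40 ± 0.25 (SE), with a 95% interval from 2.73 to 4.08 and an adjusted p of 0.00849. With a mean under 20 in remaining tissue, Timm22 was tested only because of its high values in isolated mitochondria, the group in which it was called higher, so its call is conditional on that direction. It was the only member tested of which this holds. At the level of remaining tissue, both libraries together would have held 5.55 reads, while 61 were counted, with an exact 95% Poisson interval from 46.7 to 78.4 that covers counting error only. Per kb of exon, Timm22 ranked 27th of the 35 members in remaining tissue, at 5.66 normalized counts per kb, and 3rd in isolated mitochondria, at 62.8. It was called higher in 16 of 17 alternative settings, with an adjusted p of at most 0.0270. Scaled to the total of all genes, which mitochondrially encoded RNA dominates, it was lower like 96.7% of all genes.

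A difference of this size was not particular to Timm22. Among the 6862 nuclear genes tested outside copies of the mitochondrial genome, 218 (3.18%) had a larger log2 fold change. Its partner Timm29, a further subunit of TIM22, had 73 and 77 normalized counts in remaining tissue and 27 and 51 in isolated mitochondria. Both values of Timm29 in isolated mitochondria lay below those of remaining tissue. It did not pass (log2 fold change -0.99 ± 0.40, limma adjusted p = 0.158), so the 2 TIM22 genes among the members lay on opposite sides of 0. No member had a stretch similar to the mitochondrial genome.

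Part of the Timm22 transcript is shared with other genes. Positions 1137 to 1229 of its transcript, downstream of the coding sequence, match bases 1 to 93 of Bc1 at 93.5% identity. Bc1, a short brain RNA, was not the closest match, since 6 genes shared at least 50 nt at 95% identity or more. The longest of these matches was 94 nt at 98.9% identity with Ccdc36. In all, 24 genes held a stretch of Timm22 (minimum 50 nt, 90% identity), never reaching into its coding sequence, and 16 of these were in the table. Among the 5 tested, Bc1 was higher, with 8 and 7 normalized counts in remaining tissue and 54 and 40 in isolated mitochondria (limma log2 fold change 2.48 ± 0.50, adjusted p = 0.0464). Like Timm22, Bc1 reached the minimum mean only through isolated mitochondria. The other 4 did not pass and ranged from -0.99 (D10Wsu102e) to 1.38 (Dennd4a). Of the 16, 7 lay higher in isolated mitochondria without overlap and 4 lower, where 18.4% and 43.1% of all genes in the table did so. These counts include genes near the floor. Of those higher, Kif3a had 3 and 3 reads in isolated mitochondria, Elp6 2 and 3, and Gm12992 1 and 2. Of those lower, Ints9, Slc52a2 and Tlcd5 had no read there. The table does not show where on Timm22 its reads fell, and the part of the shared stretch in its difference was not tested.

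**Figure D3:**
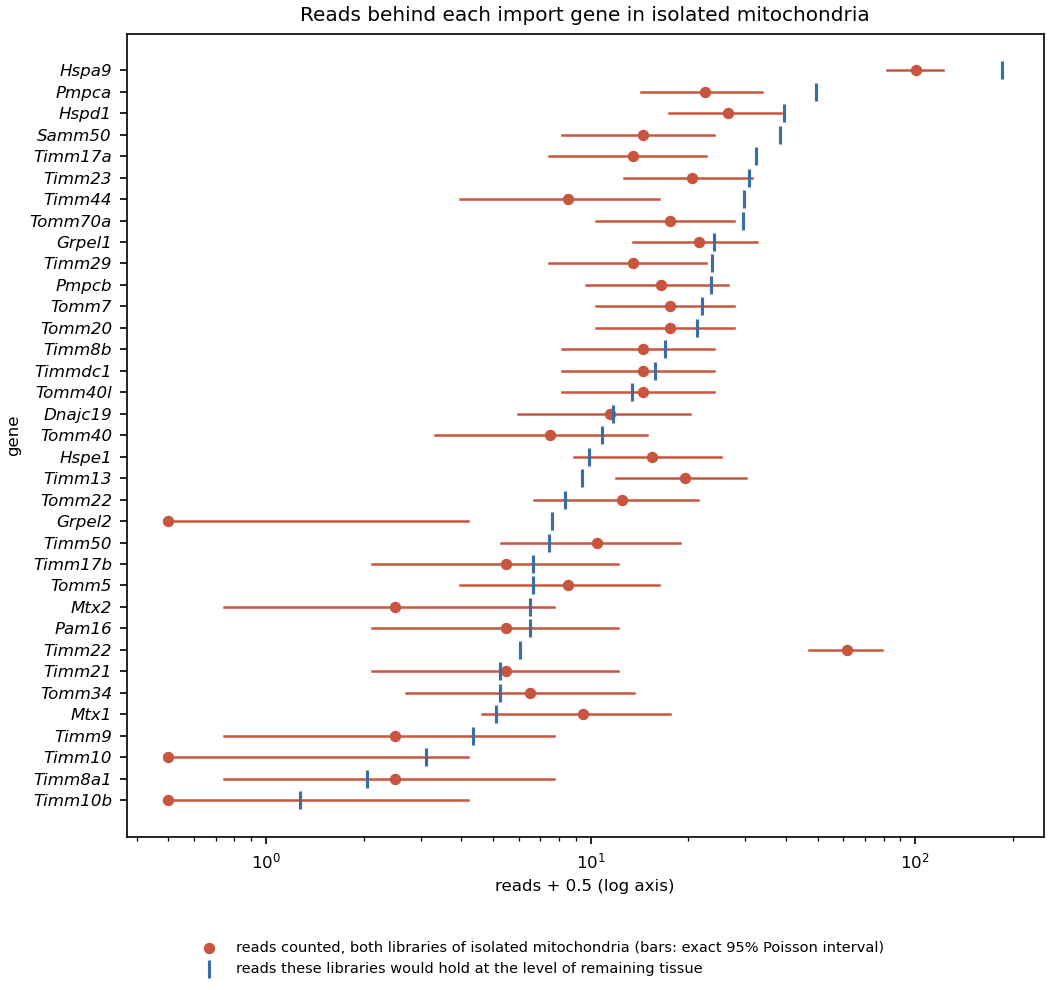
Reads counted in both libraries of isolated mitochondria together (red, with exact 95% Poisson intervals) for the 35 members, beside the reads these libraries would hold at the level of remaining tissue (blue bars), on a log axis of reads plus 0.5. The blue bar lies inside the red interval for 24 members, to the right of it for 9 and to the left for Timm22 and Timm13. The blue bars rest on the deposited scaling.

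The motor that pulls proteins through TIM23 holds Hspa9, the mitochondrial Hsp70, its anchor Timm44, the J-domain proteins Dnajc19 and Pam16, and the nucleotide exchange factors Grpel1 and Grpel2. Hspa9 was the member with the most reads. It had 610 and 588 normalized counts in remaining tissue and 335 and 319 in isolated mitochondria (37 and 63 reads), and the groups did not overlap. Its log2 fold change was -0.87 ± 0.17, with a 95% interval from -1.33 to -0.41 and a limma adjusted p of 0.0426. This lies 0.43 below the median of all genes tested, and 36.5% of the nuclear genes outside copies had a lower value. Hspa9 passed as lower in 8 of 17 alternatives, with adjusted p-values from 7.59e-06 to 0.932. Among the 8 were scaling to the total of all genes, where 96.7% of all genes were lower, and both settings without a library of isolated mitochondria. Relative to nuclear reads alone the log2 fold change of Hspa9 was 0.024. Without replicate 1 or 2 of remaining tissue the limma adjusted p was 0.554 and 0.508. Its processed copy Hspa9-ps1 had 1 and 2 normalized counts in remaining tissue and 9 and 0 in isolated mitochondria.

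Timm44 tethers Hspa9 to the channel. It had 99 and 91 normalized counts in remaining tissue and 36 and 20 in isolated mitochondria, 4 reads in each library. The groups did not overlap, and the log2 fold change of -1.78 ± 0.38 just missed the threshold (limma adjusted p = 0.0510). It passed in 9 of 17 alternatives, with an adjusted p of 0.0165 in edgeR and 0.00349 in DESeq2. Among the 9 were scaling to the total of all genes, where 96.7% of all genes were lower, and both settings without a library of isolated mitochondria.

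Grpel1, the constitutive exchange factor, overlapped between groups, with 74 and 78 normalized counts in remaining tissue and 54 and 76 in isolated mitochondria (log2 fold change -0.24 ± 0.29, limma adjusted p = 0.563). Its relative Grpel2, 60.8% identical in coding sequence, had 22 and 24 normalized counts in remaining tissue and no read in isolated mitochondria. Together with Timm10 and Timm10b it was singled out after its values were seen, as 1 of the 3 members without any read there. On the deposited scaling, a floor of 3 reads per library (21.2 normalized counts on average) allows only that Grpel2 was at least 1.09-fold lower. At the level of remaining tissue on that scaling, 7.09 reads would have been counted in both libraries. Relative to the reads of nuclear genes alone no bound was worked out, so a decrease is not shown on that scale. Grpel2 was not among the genes tested, its mean being under 20.

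Dnajc19 and Pam16 form the J-domain pair of the motor. Dnajc19 had 36 and 37 normalized counts in remaining tissue and 27 and 40 in isolated mitochondria (log2 fold change -0.15 ± 0.35, limma adjusted p = 0.781). Pam16 had 18 and 21 against 18 and 15, from 2 and 3 reads, and was not tested. Both overlapped between groups.

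The channel of TIM23 itself consists of Timm23 and of Timm17a or Timm17b, with Timm50 as the receptor for presequences and Timm21 as a link to TOM. Timm23 had 95 and 102 normalized counts in remaining tissue and 54 and 71 in isolated mitochondria. It did not overlap between groups and did not pass (log2 fold change -0.66 ± 0.26, limma adjusted p = 0.157). Timm23 shares 1121 nt at 99.9% identity with Gm10273, which had 8 and 10 normalized counts against 0 and 15. Reads that align to several places were left out of the counting, so the level of Timm23 is uncertain.

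Timm17a had 114 and 93 normalized counts in remaining tissue and 36 and 46 in isolated mitochondria, again without overlap. Its log2 fold change of -1.32 ± 0.28 just missed the threshold in limma (adjusted p = 0.0510) and passed in 7 of 17 alternatives. Its paralog Timm17b, 67.8% identical in coding sequence, had 22 and 18 normalized counts against 0 and 25 and was not tested. Timm50 had 21 and 24 normalized counts in remaining tissue and 0 and 51 in isolated mitochondria, from 0 and 10 reads. Its groups overlapped, and the 95% interval of its log2 fold change ran from -7.59 to 4.18. Timm21 had 17 and 14 against 36 and 5. None of the 3 TIM23 genes tested passed in limma, 1 had an unadjusted p under 0.05, and 1 passed in edgeR and in DESeq2 (0 in edgeR with TMM scaling).

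At the outer membrane, Tomm20, Tomm22 and Tomm70a serve as receptors and Tomm40 as the channel, while Tomm5 and Tomm7 are small subunits that stabilise the complex. None of the 7 TOM genes tested passed in limma, edgeR or DESeq2, and 1 had an unadjusted p under 0.05. Tomm20, the receptor for presequences, had 64 and 71 normalized counts in remaining tissue and 45 and 61 in isolated mitochondria (log2 fold change -0.36 ± 0.29, adjusted p = 0.409 in limma). Tomm70a, the receptor for carrier proteins, had 95 and 93 against 63 and 51 (log2 fold change -0.72 ± 0.25, limma adjusted p = 0.124). For both receptors the values in isolated mitochondria lay below those in remaining tissue.

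Tomm22, the central receptor, had 27 and 24 normalized counts in remaining tissue and 27 and 46 in isolated mitochondria (log2 fold change 0.46 ± 0.42, limma adjusted p = 0.462). Tomm40 had 32 and 35 against 36 and 15, from 4 and 3 reads (log2 fold change -0.50 ± 0.54, limma adjusted p = 0.527). Both overlapped between groups. Tomm40l, the second channel form, had 42 and 42 against 63 and 35, but 64.3% of its exon bases overlap Nr1i3 on the opposite strand, and the strand setting of the counting is not given in the sources used here. Tomm5 and Tomm7 overlapped between groups as well, and Tomm34, a cytosolic helper of import, had 14 and 17 against 18 and 20 and was not tested.

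Samm50 is the barrel protein of SAM. It had 123 normalized counts in both libraries of remaining tissue and 63 and 35 in isolated mitochondria, 7 reads in each. The groups did not overlap, and the log2 fold change of -1.37 ± 0.37 did not pass in limma (adjusted p = 0.0786), while it passed in edgeR (0.0229) and DESeq2 (0.00344). Of the metaxins, which join SAM at the outer membrane, Mtx1 had 13 and 17 normalized counts against 9 and 40 and Mtx2 19 and 20 against 18 and 0, and neither was tested.

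Among the small TIM chaperones, whose cysteine stretches are printed above, 2 of 6 were tested and neither passed in limma, edgeR or DESeq2, with none at an unadjusted p under 0.05 in limma. Timm8b had 56 and 51 normalized counts in remaining tissue and 54 and 40 in isolated mitochondria. Timm13 had 28 and 30 against 27 and 81, from 3 and 16 reads, so that a single library lay apart. Without replicate 1 of isolated mitochondria its log2 fold change was 1.45, and without replicate 2 it was -0.10. Timm10 had 9 and 8 normalized counts and Timm10b 2 and 3 in remaining tissue, both with no read in isolated mitochondria, which at 2.62 and 0.770 reads expected at the level of remaining tissue was not distinguishable at this depth. Timm8a1 and Timm9 had 2 reads each in isolated mitochondria.

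The processing peptidase consists of Pmpca and Pmpcb. Pmpca had 153 and 165 normalized counts in remaining tissue and 45 and 86 in isolated mitochondria, and Pmpcb had 75 and 74 against 36 and 61. Neither overlapped between groups. Pmpca missed the threshold in limma (log2 fold change -1.34 ± 0.38, adjusted p = 0.0895) and passed in edgeR (0.0371) and DESeq2 (0.00665). Pmpcb passed in none of these (log2 fold change -0.66 ± 0.35, limma adjusted p = 0.250). Of the exon bases of Pmpca, 20.4% overlap Inpp5e on the opposite strand.

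The chaperonin genes Hspd1 (Hsp60) and Hspe1 (Hsp10) lie head to head on chromosome 1 and overlap by 112 nt. Hspd1 had 131 and 121 normalized counts in remaining tissue and 109 and 71 in isolated mitochondria, below in both libraries (log2 fold change -0.51 ± 0.30, limma adjusted p = 0.282). Hspe1 had 30 and 31 against 45 and 51, above in both (log2 fold change 0.63 ± 0.29, limma adjusted p = 0.192). Neither of the pair passed in limma, edgeR or DESeq2, and none had an unadjusted p under 0.05 in limma. Beside Timm22, Hspe1 was the only tested member whose groups did not overlap in the upward direction, where 25.5% of all genes tested did so. Relative to nuclear reads alone Hspe1 passed (log2 fold change 1.53). On that scale 1177 of the 6916 genes tested were called higher, and the median of all genes was 0.45. A processed copy, Hspd1-ps3, had 17 and 19 normalized counts against 0 and 5. It shares 1722 nt at 99.0% identity with Hspd1. Reads that align to several places were left out of the counting, so the level of Hspd1 is uncertain. Timmdc1, a TIM-related assembly factor of complex I, had 48 and 51 against 36 and 51.

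**Figure D4:**
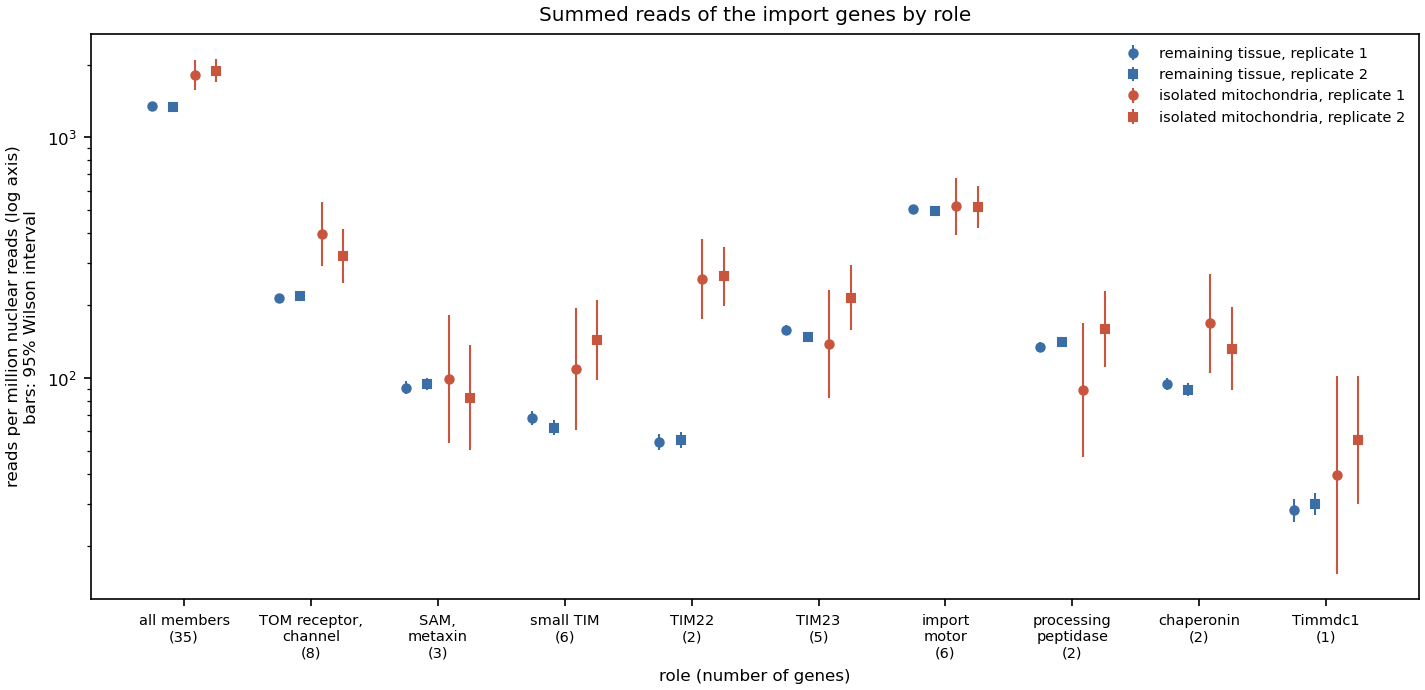
Summed reads of the members by role, as reads in 1000000 reads of nuclear genes outside copies of the mitochondrial genome (ppm, log axis), in the 4 libraries with 95% Wilson intervals and the number of genes in brackets. The red points of TIM22 (258 and 265) stand clear of the blue ones (54.1 and 55.4), while those of the import motor (515 and 513 against 505 and 494) do not. Of the 26 and 48 reads of TIM22 in isolated mitochondria, 23 and 38 were from Timm22.

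Summed by role and set against nuclear reads alone, the 35 members made up 1348 and 1334 ppm of these reads in remaining tissue and 1813 and 1888 in isolated mitochondria. The 95% Wilson intervals, from 1569 to 2095 and from 1698 to 2099 in isolated mitochondria, lay above both values of remaining tissue. On this scale the median log2 fold change was 0.47 for the members tested and 0.45 for all genes tested, so a rise was not particular to the members. In normalized counts the direction was the opposite, with sums of 2292 and 2264 against 1651 and 1731. Timm22 alone accounted for 23 and 38 of the 183 and 342 reads, and without it the members made up 1337 and 1323 against 1585 and 1678 ppm. The TIM22 pair had 54.1 and 55.4 ppm in remaining tissue and 258 and 265 in isolated mitochondria. Of its 26 and 48 reads in isolated mitochondria, 23 and 38 were from Timm22 and 3 and 10 from Timm29. TOM genes had 214 and 219 in remaining tissue and 396 and 320 in isolated mitochondria. For the processing peptidase the values were 134 and 141 against 89.2 and 160, so the groups overlapped. These sums were not tested.

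Per kb of exon, Hspa9 was the highest member in remaining tissue, at 139 normalized counts per kb, followed by Timm8b (103), Tomm7 (62.2), Timm23 (55.2) and Hspd1 (47.7). In isolated mitochondria Timm8b came first (90.7), then Hspa9 (75.9), Timm22 (62.8), Tomm7 (52.4) and Timm13 (39.4). Tomm7 and Timm8b overlapped between groups, and Timm13 rested on a single library. The levels of Timm23 and Hspd1 are uncertain because of the sequence they share with copies. Across the 24 members tested, Spearman's rho of the log2 fold change was -0.70 with the mean level in remaining tissue, -0.50 with exon length and -0.12 with GC content. The level in remaining tissue is also subtracted in the log2 fold change, so a negative rho with it is favoured by construction. These correlations are descriptions across genes that share libraries and a depth of few reads, and a gene low in remaining tissue passes the minimum mean only if it is not low in isolated mitochondria. Members just under that minimum were Mtx1 (mean 19.75), Timm21 and Pam16 (18.0 each), and those just above it were Timm50 and Tomm5 (24.0 each).

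Further genes of import and protein quality were described by a list of 23, all in the table. Among them were the acylglycerol kinase Agk, the disulfide relay genes Chchd4 and Gfer, the insertase Oxa1l and the proteases Lonp1, Clpp and Afg3l2. None of the 14 tested passed in limma, 5 were lower at an unadjusted p under 0.05, and 1 was lower in edgeR, 0 in edgeR with TMM scaling and 2 in DESeq2. Over all genes tested, 9.30% were lower in limma, 17.6% in edgeR and 19.5% in DESeq2, and 37.0% had an unadjusted p under 0.05 in limma. The median log2 fold change of the 14 was -0.81, beside -0.44 for all genes tested. Of the 14, 8 did not overlap between groups, where 69.1% of all genes tested did not. Trap1, the mitochondrial Hsp90, had 164 and 165 normalized counts against 81 and 152 and Lonp1 127 and 128 against 154 and 61. The first did not overlap and the second did, and neither passed.

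Other sets gave similar medians with one exception. Mitochondrial ribosomal proteins had a median of -0.35 (0 of 52 passed in limma, 3 at an unadjusted p under 0.05, 1 in edgeR and 0 in DESeq2), nuclear subunits of complex I -0.45 (2 of 37 lower, Ndufb4 and Ndufs1, with 6 lower in edgeR and 8 in DESeq2) and cytosolic chaperones -0.41 (1 of 16 lower, Hspa4, with 2 lower in edgeR and 4 in DESeq2). ER translocon and chaperone genes had a median of 0.60, and 4 of 15 were higher (Calr, Hsp90b1, Pdia3 and Pdia4, all folding factors of the ER), with 5 higher in edgeR and 6 in DESeq2. Over all genes tested, 7.32% were higher and 9.30% lower in limma, 13.6% and 17.6% in edgeR, and 17.1% and 19.5% in DESeq2. An unadjusted p under 0.05 in limma was found for 37.0% of them. The differences between the sets above and the import genes were not tested.

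**Figure D5:**
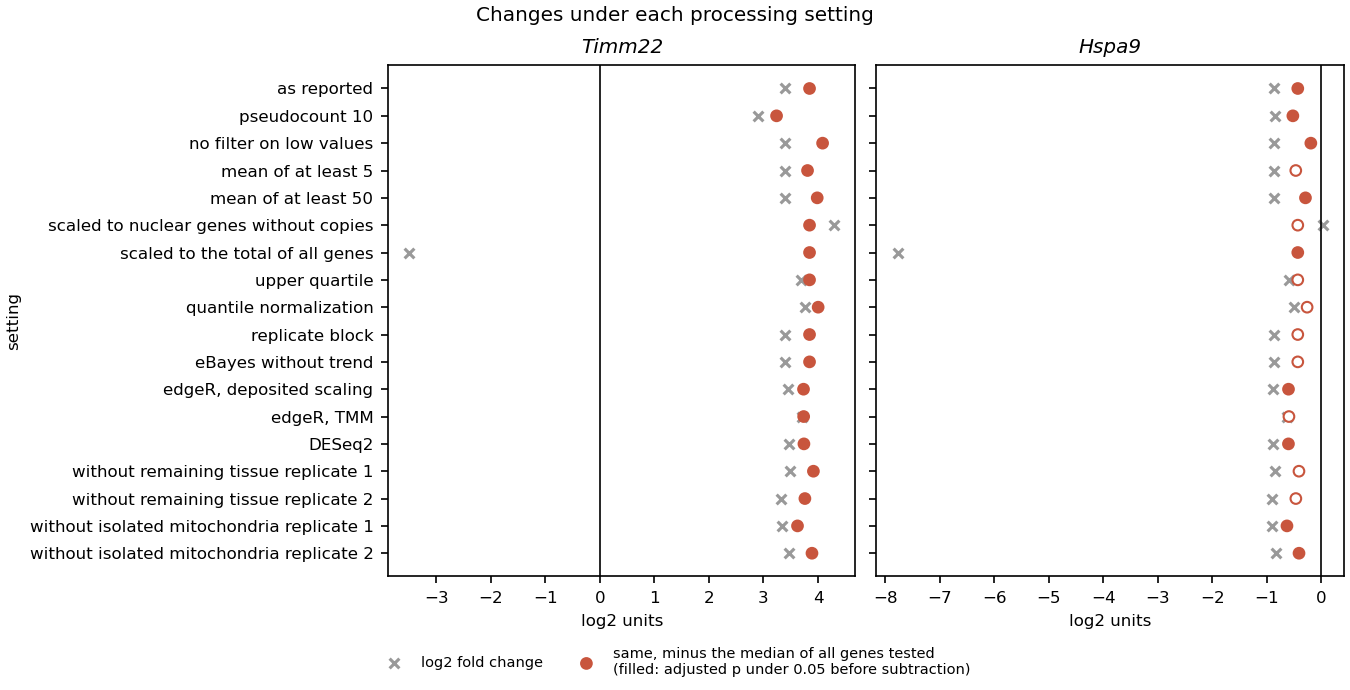
Log2 fold change of Timm22 and Hspa9 as reported and under each of the 17 alternatives (crosses) and after subtraction of the median of all genes tested in that setting (circles, filled where the adjusted p is under 0.05). Relative to that median, Timm22 stays between 3.24 and 4.09 and Hspa9 between -0.63 and -0.19 over the alternatives.

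Relative to the median of all genes in the same setting, Timm22 stood 3.85 higher as reported and 3.24 to 4.09 higher over the 17 alternatives. Hspa9 stood at -0.43 as reported and between -0.63 and -0.19 over the alternatives, the value closest to 0 being that without a filter on low values.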

How the data were processed

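Members and gene lists were chosen with earlier results of these data known. Values were deposited by the authors as 1 table. The authors trimmed reads of 75 nt from a stranded kit (10 ng of total RNA) with Trimmomatic, aligned them with STAR, counted over exons with featureCounts without ambiguous and multi-mapping reads, and scaled with DESeq2; the submitters' processing notes name Trimmomatic 0.39, STAR 2.7.10a, featureCounts 2.0.2 and DESeq2 1.30.1. The deposited values are a signal, gene counts divided by a size factor and rounded.

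Whole reads were recovered in isolated mitochondria, where all low values (10508 and 11660 below 2000; 100%) fell on multiples of 1 step, within rounding and 0.1. In remaining tissue, reads were estimated from 1 common step of 0.142 normalized counts. All 35 members had the same coordinates in GENCODE M21.

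Genes with a mean of at least 20 were tested with limma 3.58.1 (eBayes with trend, two-sided) on log2(normalized count + 1), with Benjamini-Hochberg adjustment and a threshold of 0.05. The pseudocount understates changes of low genes, while a library without a read, next to libraries where 1 read is worth several normalized counts, pulls a fold change far down (Timm50). As an alternative, edgeR 4.0.16 (quasi-likelihood) on the reads called 941 genes higher and 1220 lower, and DESeq2 1.42.0 called 1180 and 1350. Scripts were tested on simulated data, where limma recovered the fold changes but called no changed gene and edgeR called part of them, so a gene that did not pass in limma is not shown to be unchanged. Shared sequence was searched with BLAST 2.17.0. Described in full were members that passed, 17 core members, and among tested members without overlap the 3 highest (Timm22, Hspe1, Tomm20) and the 3 lowest (Timm44, Samm50, Pmpca); none of those with 3 reads or fewer in each library of isolated mitochondria reached a mean of 20. Poisson and Wilson intervals (95%) and the floor of 3 reads cover counting error only.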

Additional observations from a re-analysis of the deposited data

How the results depend on the processing

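Timm22 was called higher in all alternatives except scaling to the total of all genes, where its log2 fold change was -3.50 (adjusted p = 0.00252 in limma), and the count of import genes called higher was then 0; it was 2 when scaled to nuclear genes without copies and 1 to 5 with a replicate left out. The count called lower was 1 as reported, 3 with a pseudocount of 10, 3 at a minimum mean of 50, 5 without a filter on low values, 0 when scaled to nuclear genes without copies, 24 when scaled to the total, 0 with upper quartile scaling, quantile normalization or eBayes without trend, 5 in edgeR, 2 in edgeR with TMM, 5 in DESeq2 and 0 to 13 with a replicate left out. Without replicate 1 or 2 of isolated mitochondria, the counts lower were 11 and 13, since the spread then comes from the close pair of remaining tissue, as which the lone library is assumed to vary; without replicate 1 or 2 of remaining tissue both were 0, Hspa9 being lost.

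Over all genes, 506 were called higher and 643 lower. The counts were 283 and 399 at a minimum mean of 5, 1177 and 191 when scaled to nuclear genes, 36 and 6686 when scaled to the total, 941 and 1220 in edgeR, and 1180 and 1350 in DESeq2. Higher were 1104 in edgeR with TMM. Lower were 3026 without a filter, 417 with quantile normalization and 374 without trend. Leaving out a replicate gave 296 to 1724 higher and 176 to 3198 lower.

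The replicate numbers are shared between groups, but the labels do not say that they pair libraries, and same-numbered libraries deviated together only weakly (r = 0.14 across 6916 genes). With the replicate block, 1144 genes were lower and 3 import genes (Pmpca, Timm44 and Samm50) passed as lower, while Hspa9 did not (adjusted p = 0.0607 in limma).

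The median change of the import genes (-0.43) was -0.33 with a pseudocount of 10, -0.66 at a minimum mean of 50, 0.47 when scaled to nuclear genes, -7.33 when scaled to the total, -0.15 with upper quartile scaling, -0.25 with quantile normalization, -0.32 in edgeR, -0.078 in edgeR with TMM and -0.32 in DESeq2. It was -0.35 to -0.47 with a replicate left out.

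Signs of single members turned with the scaling. Scaled to nuclear genes, log2 fold changes were 0.75 for Dnajc19, 0.65 for Grpel1, 0.024 for Hspa9, 0.38 for Hspd1, 0.24 for Pmpcb, 0.23 for Timm23, 0.70 for Timm8b, 0.69 for Timmdc1, 0.54 for Tomm20, 0.39 for Tomm40, 0.62 for Tomm7 and 0.18 for Tomm70a. Scaled to the total, they were -6.27 for Hspe1, -6.22 for Timm13, -6.45 for Tomm22, -6.74 for Tomm40l and -6.49 for Tomm5. With upper quartile scaling they were 0.13 for Dnajc19, 0.034 for Grpel1, 0.079 for Timm8b and 0.074 for Timmdc1, and in edgeR with TMM 0.20, 0.073, 0.0086 and 0.11. Timm50 was at 0.51 in edgeR, 0.74 with TMM and 0.26 in DESeq2. With a replicate left out, values ran from -0.42 to 0.13 for Dnajc19, -0.48 to 0.00049 for Grpel1, -0.10 to 1.45 for Timm13, -4.55 to 1.15 for Timm50, -0.41 to 0.015 for Timm8b, -0.45 to 0.043 for Timmdc1, -1.11 to 0.10 for Tomm40, -0.26 to 0.57 for Tomm40l and -0.60 to 0.040 for Tomm7. Scaling changes follow from the construction of each alternative, and the cause of the others was not tested. The few reads per member limit what could be called in either direction.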
